A study of Arabidopsis thaliana with 12 samples.

Results

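The calmodulin-like touch and wound genes described here are CML24 (also TCH2, AT5G37770), CML12 (also TCH3, AT2G41100), CML23 (AT1G66400), CML9 (AT3G51920), CML37 (AT5G42380), CML38 (AT1G76650), CML39 (AT1G76640) and CML40 (AT3G01830). They are picked out by locus identifier and are 8 of the 36917 loci in the count files. In these Arabidopsis thaliana plants, 7 of the 8 had enough counts to be tested, and CML39 did not. The 7 also passed the filter on low counts within the libraries of either genotype alone. The reference lists CML39 as an older name of CML37 as well, and it gives AT3G01830 no name, so the names CML39 and CML40 follow the choice of loci above.

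The triple mutant flu/ex1/ydl1 was set against the double mutant flu/ex1, so that every plant carried flu and ex1. Plants of both genotypes grew in soil under constant light to an age of 6 d, spent up to 4 h in darkness and were taken at 0, 30 or 60 min after return to light. Total RNA of the plants was sequenced in 2 libraries for each of the 6 groups of genotype and time, and no wild type is analysed here. FLU limits pigment synthesis in the dark. Without it protochlorophyllide builds up, and light then makes singlet oxygen in the plastid, while EX1 is a plastid protein that passes this signal on to the nucleus. The comparison addresses whether YDL1 restrains the gene expression changes that follow, as the title of the series states it. Whether the 2 libraries of a group came from separate plants, pools or 1 extract is not stated, so a p measures the spread between these libraries, which may be technical.

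The time in the labels and the time in the deposited file name were the same for 4 of the 12 libraries and differed for 8. Times below are those of the file names, which the choice of these genes prescribes, and libraries carry the file-name replicate number. Over the 7 tested genes, the 2 libraries of a group lay 1.01 log2 units apart (root mean square, mean of 6 groups) by file-name time and 1.94 by labelled time. With labelled times, 0 of the 7 genes passed the threshold in any of the 12 comparisons made here, and values by labelled time are given with the results below. The genotype of a library did not depend on this choice. Which of the times is right was not tested.

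Calmodulin-like proteins are small calcium sensors. Calcium enters the cytosol after touch, wounding or stress, binds the EF hands of the sensor, and the sensor then binds and alters other proteins. CML24 and CML12 were among the first touch-induced genes found in Arabidopsis, and CML24 and CML23 encode close relatives that act in nitric oxide levels and in the move to flowering. CML9 acts in responses to salt, abscisic acid and bacterial flagellin, CML37 in jasmonate-dependent defence after wounding and feeding by insects, CML38 in RNA granules of low-oxygen cells, and CML39 in seed and seedling development.

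RefSeq's TAIR10.1 places on the minus strand CML24 at chr5:14997514-14999619, CML37 at chr5:16942447-16943820, CML23 at chr1:24770419-24771393, CML38 at chr1:28766750-28768138, CML39 at chr1:28765254-28765866 and CML9 at chr3:19267951-19269658, and on the plus strand CML12 at chr2:17137037-17139700 and CML40 at chr3:296024-299263. CML38 and CML39 are direct neighbours, 883 bases apart on the same strand. CML12 lies 37 bases from CML10, CML23 lies 2719 bases from the calmodulin gene CAM4, and CML24 lies 4846 bases from the calmodulin gene CAM1, each on the same strand. The 250 bases before the annotated gene start were read from the same build, by its own annotation, since the count files carry no coordinates. The sequences of CML24 (chr5:14999620-14999869, minus strand), CML23 (chr1:24771394-24771643, minus strand) and CML9 (chr3:19269659-19269908, minus strand) are shown because they hold letters known as binding motifs of calmodulin-binding transcription activators (CAMTA). The sequences of CML12 (chr2:17136787-17137036, plus strand) and CML38 (chr1:28768139-28768388, minus strand), the 2 genes whose response to 60 min of light differed between genotypes past the test below, are shown beside them and hold none of those letters. CML10 ends 37 bases before CML12, so beyond its last 37 bases the CML12 window runs into the CML10 gene. Capitals mark CGCGTT (or its reverse complement) and ACGCGT, and each sequence runs 5′ to 3′ on the strand of its gene.
CML24: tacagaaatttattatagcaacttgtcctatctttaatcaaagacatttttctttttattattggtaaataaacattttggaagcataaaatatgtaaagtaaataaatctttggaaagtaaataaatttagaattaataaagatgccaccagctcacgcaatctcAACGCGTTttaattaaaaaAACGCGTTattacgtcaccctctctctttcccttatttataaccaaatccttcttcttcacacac
CML23: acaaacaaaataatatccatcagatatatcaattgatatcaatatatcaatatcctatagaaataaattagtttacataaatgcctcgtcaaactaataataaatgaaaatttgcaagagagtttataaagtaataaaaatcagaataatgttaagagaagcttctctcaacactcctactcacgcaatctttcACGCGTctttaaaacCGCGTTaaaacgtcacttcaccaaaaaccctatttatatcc
CML9: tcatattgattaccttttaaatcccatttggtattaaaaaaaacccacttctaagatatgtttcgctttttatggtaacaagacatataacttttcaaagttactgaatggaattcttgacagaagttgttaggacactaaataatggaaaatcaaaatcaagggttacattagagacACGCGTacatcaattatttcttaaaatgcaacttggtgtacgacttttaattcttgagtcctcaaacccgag
CML12: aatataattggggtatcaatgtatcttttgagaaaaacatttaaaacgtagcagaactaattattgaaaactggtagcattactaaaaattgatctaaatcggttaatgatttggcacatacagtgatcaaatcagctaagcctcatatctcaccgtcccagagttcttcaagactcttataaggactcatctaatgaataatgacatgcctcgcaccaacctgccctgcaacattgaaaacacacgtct
CML38: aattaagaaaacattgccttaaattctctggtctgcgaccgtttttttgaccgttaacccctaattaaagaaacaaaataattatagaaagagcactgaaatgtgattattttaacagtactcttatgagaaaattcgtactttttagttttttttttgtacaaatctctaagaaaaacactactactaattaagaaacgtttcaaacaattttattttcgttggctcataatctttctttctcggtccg

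CGCGTT on either strand, the core of the rapid stress response element, stood in the windows of CML24 and CML23, and in 2.59% of the windows of 27443 protein-coding genes. ACGCGT, the palindromic CG box, stood in those of CML24, CML23 and CML9, and in 1.67% of all windows, and the 2 motifs share letters where they overlap. CML24 held 2 copies of ACGCGT, with first bases 83 and 64 bases before the gene start, each inside a run in which CGCGTT also reads on both strands. CACGTG, the G-box, stood in none of the 8 windows and in 6.49% of all windows. TTGAC on either strand, the core of the W-box, stood in the windows of CML23, CML9, CML38 and CML40 and in 44.9% of all windows. A match is a run of letters and not a shown binding site.

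Total counts ran from 7954268 to 11459749 in flu/ex1/ydl1 and from 7859611 to 11591060 in flu/ex1, and plastid loci took 63.5% to 71.7% of counts in flu/ex1/ydl1 and 63.3% to 68.9% in flu/ex1. Levels are given as CPM, the count of a locus scaled to a common library size, and 1 count was worth 0.0631 to 0.179 CPM, so a floor of 3 counts in a library is 0.189 to 0.536 CPM. Intervals given below cover counting error only, and floors cover that of the low count alone. FLU averaged 43.5 ± 9.95 CPM in flu/ex1/ydl1 and 50.7 ± 4.21 CPM in flu/ex1 (SD, n = 6 each), EX1 averaged 3.22 ± 1.26 and 4.42 ± 0.797 CPM in the same order, and both are mutated in every plant. The locus of YDL1 is not given in the sources used here and its counts were not checked. The 5 green-shoot markers summed to 8676 to 12236 CPM in flu/ex1/ydl1 and 7845 to 10507 CPM in flu/ex1. The 5 root markers summed to 0.778 to 1.61 and 0.196 to 1.19 CPM, and the 4 seed storage markers to 0.406 to 1.97 and 0.211 to 1.38 CPM, in the same order. No marker of any list was at 0 over all 6 libraries of a genotype. Each root or seed storage marker had few counts over the 6 libraries, from 2 (SESA1) to 20 (PIN2 and CRC) in flu/ex1/ydl1. In flu/ex1 these counts ran from 1 (SESA1) to 25 (PIN2). In bulk RNA of plants, a change in the number of cells that express a gene and a change in RNA per cell cannot be told apart.

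After 60 min of light, 5 of the 7 tested genes were higher in flu/ex1/ydl1 than in flu/ex1, and none was lower. They were CML12, CML23, CML37, CML38 and CML40, with differences of 1.86 to 5.69 on the log2 scale. In the same comparison 9.86% of the 17879 genes tested were called, 8.53% in the higher direction, by edgeR's quasi-likelihood test with a Benjamini-Hochberg adjusted p under 0.05. All 7 genes had both flu/ex1/ydl1 libraries above both flu/ex1 libraries, a separation seen in 24% of all genes tested. At 0 min 0 of the 7 was called by edgeR or by DESeq2 (0.0112% of all genes by edgeR), and 0 had an unadjusted p under 0.05. The genotypes overlapped there for all 8 genes, while 14.2% of all genes tested were higher and 15.5% lower with no overlap. The median log2 difference over the 7 genes was 2.92 at 60 min, 1.88 at 30 min and -0.05 at 0 min, beside -0.05, 0.00 and 0.00 over all genes tested.

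**Figure D1:**
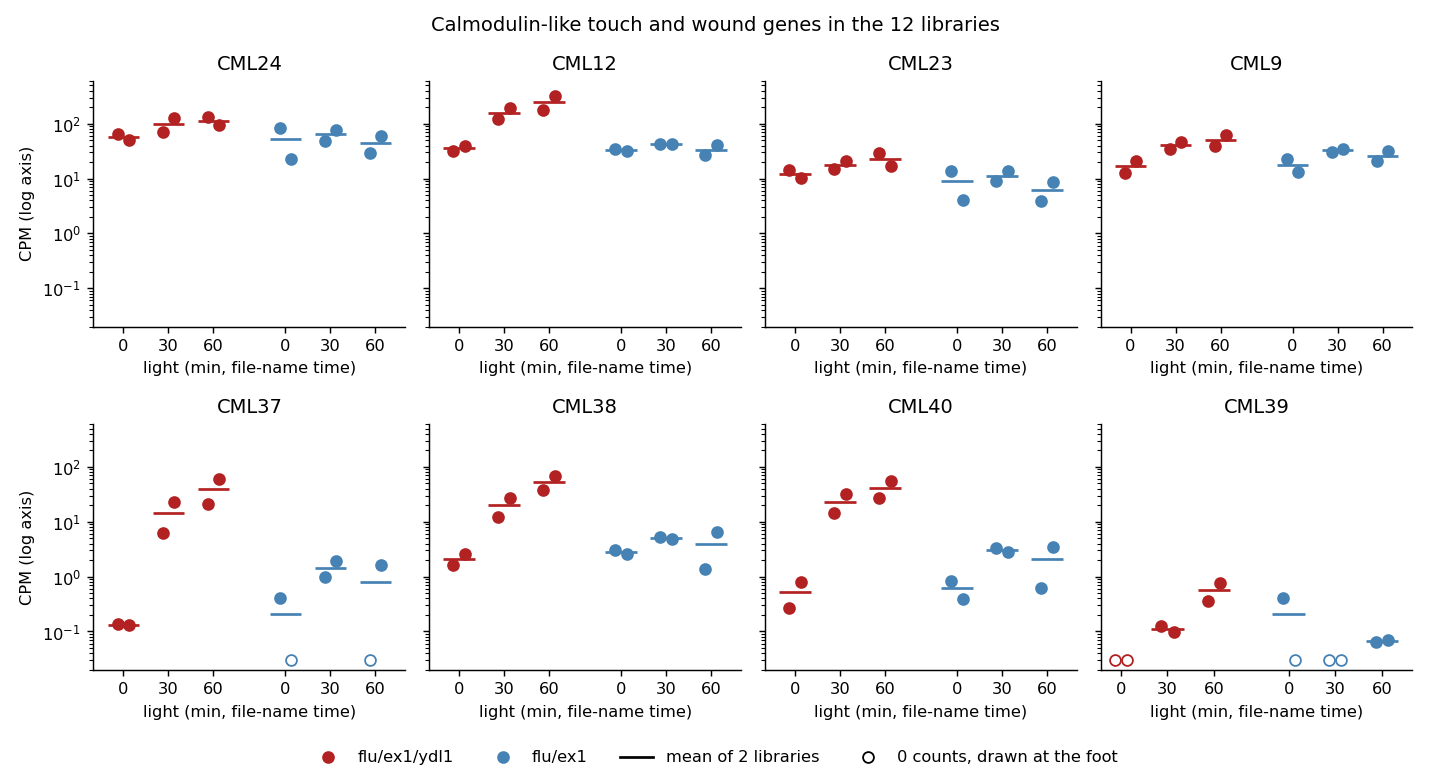
CPM of each of the 8 genes (vertical log axis) in every library of flu/ex1/ydl1 (red) and flu/ex1 (blue) at 0, 30 and 60 min of light by file-name time; each point is 1 library, bars are means of 2, and open points at the foot are libraries with 0 counts. At 60 min the 2 flu/ex1/ydl1 points of CML12 sit at 179.6 and 326 CPM, above the flu/ex1 points at 26.5 and 40.4, while at 0 min the genotypes overlap in every panel.

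CML12 encodes a longer calmodulin-like protein known as TCH3. In flu/ex1/ydl1 it had 32.1 and 39.8 CPM at 0 min, 122 and 193 CPM at 30 min, and 179.6 and 326 CPM at 60 min (replicates in ascending number). The flu/ex1 libraries had 34.5 and 31.7 CPM at 0 min, 43.5 and 42.4 CPM at 30 min, and 26.5 and 40.4 CPM at 60 min. All 4 lit flu/ex1/ydl1 libraries stood above all 6 of flu/ex1, and the 2 dark ones stood among them. The difference between genotypes was 1.88 ± 0.32 at 30 min (log2 fold change ± SE, edgeR adjusted p = 0.00225) and 2.92 ± 0.33 at 60 min, or 7.57-fold (edgeR adjusted p = 1.47e-05). The change over 60 min was 2.82 ± 0.33 in flu/ex1/ydl1 (edgeR adjusted p = 1.71e-05), against 0.02 ± 0.32 in flu/ex1 (0.991), and the test of the difference between these responses gave 2.80 ± 0.45 (edgeR adjusted p = 0.00289). With labelled times, the difference between genotypes at 60 min was 2.41 ± 0.80 (edgeR adjusted p = 0.184), the change over 60 min in flu/ex1/ydl1 1.27 ± 0.77 (0.892) and the interaction 1.41 ± 1.09 (0.829).

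Inside CML12, on the opposite strand, the reference holds AT2G41105, an uncharacterized protein-coding locus whose 827 bases all lie within the gene. Its counts were 0.446 to 0.531 times those of CML12 in every library, with 531 and 2182 counts in flu/ex1/ydl1 at 60 min against 223 and 272 in flu/ex1. The strand setting of the counting is not given in the sources used here, so reads of the 2 loci cannot be told apart. AT2G41105 differed between genotypes by 2.98 ± 0.31 at 60 min (log2, edgeR adjusted p = 8.11e-06).

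**Figure D2:**
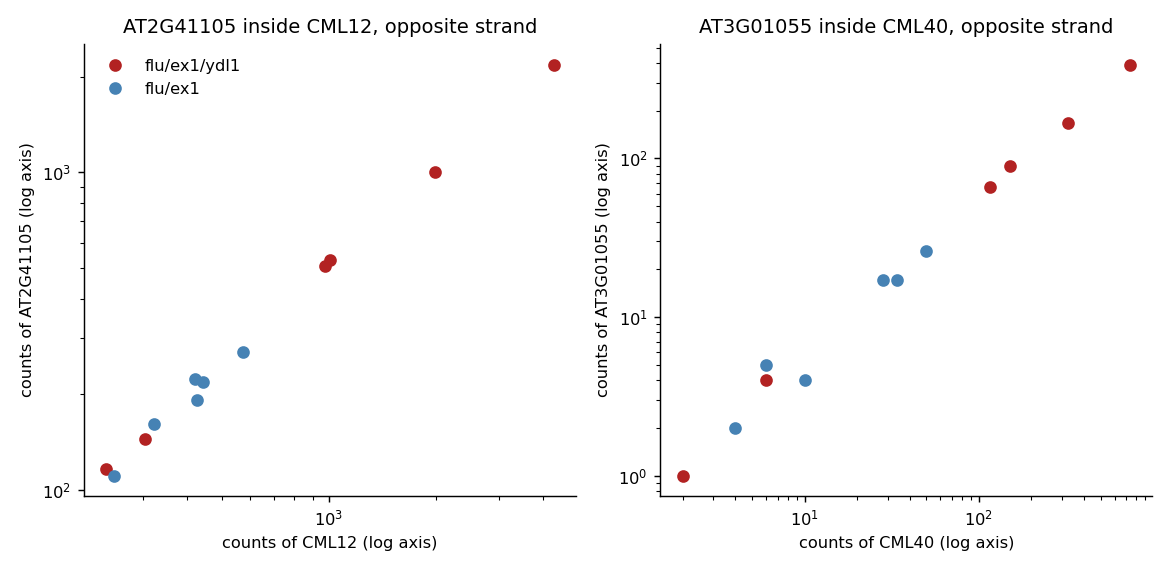
Counts per library of the opposite-strand loci AT2G41105 and AT3G01055 (vertical log axes) against those of the genes that contain them, CML12 and CML40 (horizontal log axes), with flu/ex1/ydl1 libraries in red and flu/ex1 libraries in blue. The ratio stays within 0.446 to 0.531 for CML12 and 0.4 to 0.833 for CML40.

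CML24 and CML23 are the closely related pair, and at 60 min CML23 was higher in flu/ex1/ydl1 while CML24 was not called. CML24 had 65.6 and 51.3 CPM at 0 min, 70.5 and 125 CPM at 30 min, and 131 and 92.9 CPM at 60 min in flu/ex1/ydl1. In flu/ex1 it had 83.6 and 22.5 CPM at 0 min, 48.9 and 78.4 CPM at 30 min, and 29.5 and 60.6 CPM at 60 min. The dark flu/ex1 libraries thus spanned 3.72-fold, and at 30 min the genotypes overlapped. CML24 was not called in any of the 12 comparisons: the difference between genotypes was 1.31 ± 0.48 at 60 min (log2, edgeR adjusted p = 0.107) and 0.69 ± 0.27 over all times (0.136). It passed at 60 min without either dark flu/ex1 library (edgeR adjusted p = 0.0267 without replicate 2 and 0.0274 without replicate 3), and over all times without replicate 2 (0.00535). With no filter on low counts it passed at 60 min (edgeR adjusted p = 0.000437), over all times (0.00166) and over 60 min in flu/ex1/ydl1 (0.019), and with only the groups compared in the fit it passed at 60 min (0.0485). By labelled time, the difference was 1.71 ± 0.44 at 60 min (edgeR adjusted p = 0.16) and 0.75 ± 0.25 over all times (0.132).

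CML23 had 14.1 and 10.1 CPM at 0 min, 14.7 and 21.2 CPM at 30 min, and 29.1 and 17.1 CPM at 60 min in flu/ex1/ydl1. In flu/ex1 it had 13.8 and 4.14 CPM at 0 min, 9.11 and 13.5 CPM at 30 min, and 3.85 and 8.78 CPM at 60 min. Both flu/ex1/ydl1 libraries were above both flu/ex1 libraries at 30 and at 60 min, and not at 0 min. The difference between genotypes was 1.86 ± 0.46 at 60 min (log2, edgeR adjusted p = 0.0131) and 1.00 ± 0.27 over all times (0.0249), while the change over 60 min in flu/ex1/ydl1, 0.92 ± 0.46, was not called (0.222). The call at 60 min was lost without replicate 1 of flu/ex1/ydl1 at 60 min (edgeR adjusted p = 0.0757) or replicate 1 of flu/ex1 at 60 min (0.2). The call over all times was lost without any 1 of 5 libraries (edgeR adjusted p = 0.0622 to 0.0926), namely 0 min replicate 1 and 30 min replicate 3 of flu/ex1/ydl1, and 0 min replicate 3, 30 min replicate 2 and 60 min replicate 1 of flu/ex1. By labelled time, the 60 min difference was 1.97 ± 0.46 (edgeR adjusted p = 0.16).

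CML9 had 12.9 and 21.3 CPM at 0 min, 34.0 and 47.0 CPM at 30 min, and 39.3 and 61.4 CPM at 60 min in flu/ex1/ydl1. In flu/ex1 it had 22.7 and 13.0 CPM at 0 min, 30.6 and 34.7 CPM at 30 min, and 21.0 and 31.3 CPM at 60 min. Lit libraries of flu/ex1/ydl1 all stood above its dark ones, and the genotypes overlapped at 30 min. CML9 rose in flu/ex1/ydl1 by 1.24 ± 0.34 over 30 min (log2, edgeR adjusted p = 0.0399) and by 1.56 ± 0.34 over 60 min (0.0043), and was not called between genotypes, with 0.96 ± 0.33 at 60 min (0.0848). The 30 min rise was not called when any 1 of 6 libraries was left out (edgeR adjusted p = 0.051 to 0.354), the 0 and 30 min libraries of flu/ex1/ydl1 and the 30 min libraries of flu/ex1, and the 60 min rise without dark replicate 1 (0.0816) or 60 min replicate 2 (0.0563) of flu/ex1/ydl1. Without replicate 1 of flu/ex1/ydl1 at 60 min, the difference between genotypes at 60 min was 1.28 (0.028). Run unfiltered, that comparison gave 0.91 (edgeR adjusted p = 0.025). Labelled times gave changes in flu/ex1/ydl1 of 0.82 ± 0.58 over 30 min (edgeR adjusted p = 0.831) and 0.88 ± 0.58 over 60 min (0.892).

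CML37, the wound-responsive regulator of jasmonate defence, was near the detection limit in the dark. Its counts in flu/ex1/ydl1 were 1 and 1 at 0 min, 50 and 233 at 30 min, and 116 and 781 at 60 min, and those in flu/ex1 were 3 and 0, 10 and 19, and 0 and 23. In CPM, the flu/ex1/ydl1 libraries at 60 min stood at 20.7 and 59.4, against 0 and 1.62 in flu/ex1. Summed over the 2 libraries, scaled counts of flu/ex1/ydl1 at 60 min were 360 times those at 0 min (exact 95% counting interval 99.2 to 2973, from 897 and 2 counts), and those at 30 min 117 times (32.0 to 967). The same ratios in flu/ex1 were 4.43 at 60 min (1.34 to 23.0, from 23 and 3 counts) and 8.30 at 30 min (2.57 to 42.6). Both rises in flu/ex1/ydl1 were called (edgeR adjusted p = 8.06e-05 at 60 min and 0.00199 at 30 min), and neither in flu/ex1 was (0.585 and 0.665). The difference between genotypes was 5.69 ± 0.81 at 60 min (log2, edgeR adjusted p = 0.000111) and 3.34 ± 0.78 at 30 min (0.0202), but the interaction at 60 min, 6.05 ± 3.17, was not called (0.488). The 30 min difference was not called by DESeq2 (adjusted p = 0.447), nor by edgeR without replicate 3 of flu/ex1/ydl1 (adjusted p = 0.383) or replicate 2 (0.283) or 3 (0.108) of flu/ex1 at 30 min, and without dark replicate 3 of flu/ex1/ydl1 the 30 min rise was not called (0.0534). The 60 min difference was 4.64 without replicate 1 of flu/ex1 at 60 min and 11.61 without replicate 3, where the flu/ex1 library left had 0 counts and the fitted value is no bound. By labelled time, the 60 min difference was 5.66 ± 2.06 (edgeR adjusted p = 0.204), and the changes in flu/ex1/ydl1 were 3.21 ± 1.70 over 30 min (0.798) and 2.74 ± 1.69 over 60 min (0.892).

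CML38, the RNA-granule protein, had 1.63 and 2.62 CPM at 0 min, 12.1 and 27.6 CPM at 30 min, and 37.3 and 69.7 CPM at 60 min in flu/ex1/ydl1. In flu/ex1 it had 3.04 and 2.56 CPM at 0 min, 5.19 and 4.78 CPM at 30 min, and 1.39 and 6.53 CPM at 60 min. Each step of light in flu/ex1/ydl1 put both libraries above both of the step before. CML38 rose by 4.66 ± 0.59 over 60 min in flu/ex1/ydl1 (log2, edgeR adjusted p = 2.87e-05), against 0.49 ± 0.58 in flu/ex1 (0.745). The difference between genotypes was 1.998 ± 0.51 at 30 min (edgeR adjusted p = 0.035) and 3.78 ± 0.52 at 60 min, or 13.7-fold (8.17e-05). The interaction at 60 min was 4.16 ± 0.83 (edgeR adjusted p = 0.00934), and it was not called without dark replicate 1 of flu/ex1/ydl1 (0.052), nor was the 30 min rise (0.051). The 30 min difference was not called by DESeq2 (adjusted p = 0.153), and that at 60 min was 3.04 without replicate 1 of flu/ex1 at 60 min and 5.26 without replicate 3, called in both cases. With labelled times, the 60 min difference was 3.33 ± 1.23 (edgeR adjusted p = 0.209), the interaction 2.54 ± 1.69 (0.825), and the changes in flu/ex1/ydl1 2.40 ± 1.18 over 30 min (0.798) and 2.24 ± 1.18 over 60 min (0.892).

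CML39, the neighbour of CML38, had few counts in any library. In flu/ex1/ydl1 it had 0 and 0 counts at 0 min, 1 and 1 at 30 min, and 2 and 10 at 60 min, and in flu/ex1 it had 3 and 0, 0 and 0, and 1 and 1. At 60 min the sum was 12 counts in flu/ex1/ydl1 and 2 in flu/ex1, a ratio of 9.63 after scaling (exact 95% counting interval 2.14 to 88.6). Against the floor of 3 counts over the 2 dark libraries, the 12 counts of flu/ex1/ydl1 at 60 min gave a scaled ratio of 3.21. That ratio does not cover the counting error of the 12, and 10 of them came from replicate 2. No test across libraries was made at this depth.

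CML40 had 0.271 and 0.785 CPM at 0 min, 14.4 and 31.7 CPM at 30 min, and 27.0 and 56.0 CPM at 60 min in flu/ex1/ydl1. In flu/ex1 it had 0.830 and 0.394 CPM at 0 min, 3.33 and 2.79 CPM at 30 min, and 0.631 and 3.51 CPM at 60 min. The dark values came from 2 and 6 counts in flu/ex1/ydl1 and from 6 and 4 in flu/ex1. The 2 counts are under the floor of 3, so the size of any change from the dark is uncertain. The lit libraries of flu/ex1/ydl1 all stood above every flu/ex1 library. CML40 rose in flu/ex1/ydl1 by 5.41 ± 0.72 over 30 min (log2, edgeR adjusted p = 0.000143) and by 6.27 ± 0.72 over 60 min (1.22e-05), against 2.37 ± 0.80 (0.32) and 1.79 ± 0.82 (0.328) in flu/ex1. The difference between genotypes was 2.92 ± 0.54 at 30 min (edgeR adjusted p = 0.00426) and 4.35 ± 0.56 at 60 min, or 20.5-fold (4.02e-05), and the interaction at 60 min was 4.48 ± 1.32 (0.0848). That interaction passed without replicate 1 of flu/ex1/ydl1 at 60 min (edgeR adjusted p = 0.0296) or replicate 3 of flu/ex1 at 60 min (0.0058), with the counts of overlapping loci added (0.0383) and with no filter on low counts (3.34e-06), and it passed by DESeq2 (adjusted p = 0.0394). The 60 min difference was 3.57 without replicate 1 of flu/ex1 at 60 min and 6.02 without replicate 3, called in both cases. With labelled times, the 60 min difference was 3.95 ± 1.67 (edgeR adjusted p = 0.251), and the changes in flu/ex1/ydl1 were 1.95 ± 1.5 over 30 min (0.839) and 1.99 ± 1.51 over 60 min (0.892).

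An opposite-strand long noncoding RNA locus of 205 bases, AT3G01055, lies inside CML40 and had 90 and 391 counts in flu/ex1/ydl1 at 60 min, against 4 and 26 in flu/ex1. Its counts were 0.4 to 0.833 times those of CML40, and the kinase-like gene LYK2 (AT3G01840), also inside CML40 on the other strand, had 83 counts over the 12 libraries. As with CML12, reads of these loci cannot be told apart from those of CML40.

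**Figure D3:**
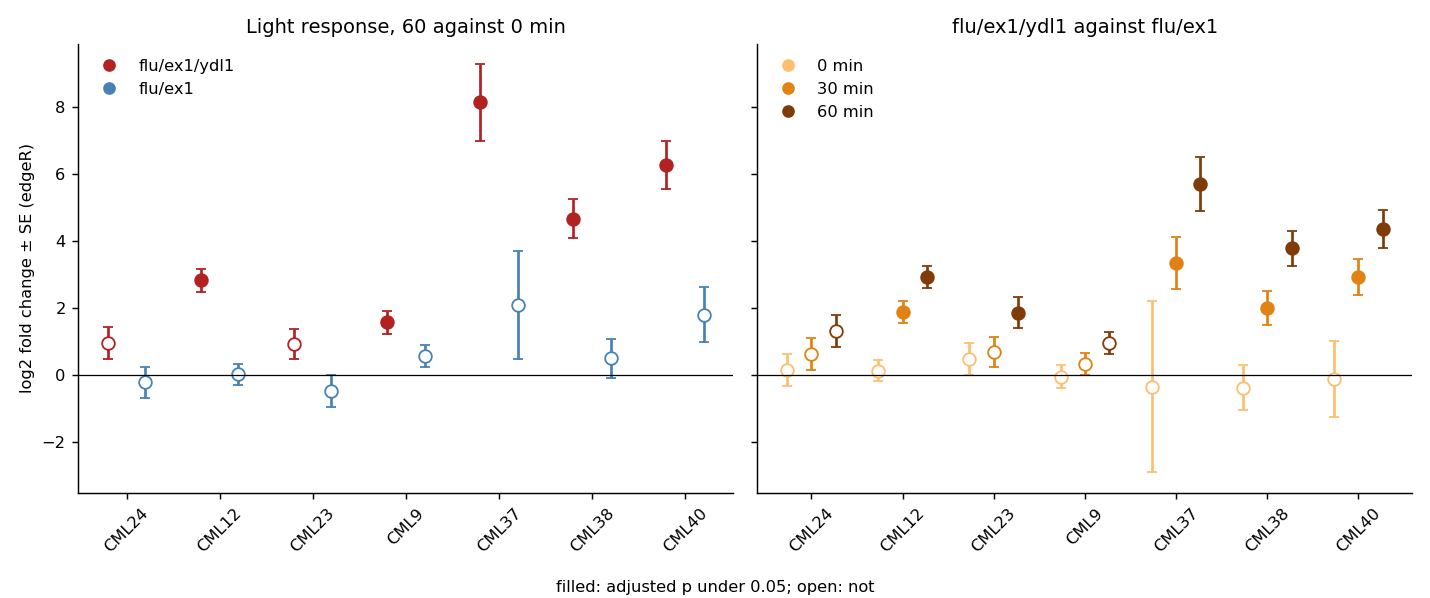
Log2 fold change ± SE of the 7 tested genes, for 60 against 0 min of light in flu/ex1/ydl1 (red) and flu/ex1 (blue) on the left, and for flu/ex1/ydl1 against flu/ex1 at 0, 30 and 60 min on the right; filled points passed an edgeR adjusted p of 0.05. On the left 5 genes pass in flu/ex1/ydl1 and 0 in flu/ex1, and on the right 0, 4 and 5 pass at 0, 30 and 60 min.

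In the first 30 min of light, 5 of the 7 genes rose in flu/ex1/ydl1 (5.39% of all genes called, 4.79% higher), namely CML12, CML9, CML37, CML38 and CML40. Over 60 min the same 5 genes rose (12.8% of all genes called, 9.6% higher). All 7 had both lit libraries above both dark ones at each of these times, as did 23.8% of all genes at 30 min and 26.1% at 60 min. From 30 to 60 min 0 of the 7 was called in flu/ex1/ydl1 by edgeR or DESeq2 (0.543% of all genes by edgeR, 0.537% higher), 3 had an unadjusted p under 0.05, with log2 changes of 0.19 to 1.47. CML38 was the 1 gene with both 60 min libraries above both 30 min ones (16.9% of all genes). The number called over 30 min was 3 without either dark flu/ex1/ydl1 library. With labelled times the number was 0 in each of these comparisons, and the change of CML12 over 30 min was 1.24 ± 0.77 (log2, edgeR adjusted p = 0.816).

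Within flu/ex1, 0 of the 7 genes was called by edgeR or DESeq2 over 30 min (0.649% of all genes by edgeR) or over 60 min (1.38%), with 0.537% and 1.03% of all genes called higher, and with 2 and 1 of the 7 at an unadjusted p under 0.05 over 30 and 60 min. Over 30 min the log2 changes ran from 0.27 to 2.95, and 5 of the 7 had both lit libraries above both dark ones, as did 18.5% of all genes. Over 60 min they ran from -0.48 to 2.08 with 0 of the 7 apart in that way (23.1% of all genes). From 30 to 60 min 0 genes of any kind were called in flu/ex1 by edgeR (0%), with 1360 at an unadjusted p under 0.05, 0 of the 7 among them, and 12 called by DESeq2, again with 0 of the 7. In that step all 7 log2 changes were negative, from -0.87 to -0.32 with errors of 0.32 to 0.99, and 2 of the 7 had both 60 min libraries below both 30 min ones (22.7% of all genes).

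Between genotypes at 30 min, 4 of the 7 were higher in flu/ex1/ydl1 (3.92% of all genes called, 3.56% higher), namely CML12, CML37, CML38 and CML40. For 5 of the 7 both flu/ex1/ydl1 libraries stood above both flu/ex1 libraries. Of all genes tested, 24.3% lay above in this way and 24.1% below. The number called was 0 without replicate 3 of flu/ex1/ydl1 at 30 min, 0 without replicate 2 of flu/ex1 at 30 min and 1 without replicate 3 of flu/ex1 at 30 min. The share of all genes called in those fits is not given here. By labelled time the number of the 7 called was 0, with log2 differences of 2.34 for CML12, 5.08 for CML37, 2.98 for CML38 and 3.81 for CML40 (edgeR adjusted p = 0.732 for each). Averaged over the 3 times, 4 of the 7 were higher (8.97% of all genes called, 7% higher), by 3.11-fold for CML12 (edgeR adjusted p = 1.95e-05), 1.996-fold for CML23, 3.47-fold for CML38 (0.00165) and 5.21-fold for CML40 (0.00743). Without dark replicate 3 of flu/ex1/ydl1, CML40 was not called there (0.193). The test of genotype by light called 0 of the 7 at 30 min (0.117% of all genes), with 3 at an unadjusted p under 0.05 and 1 called by DESeq2 (CML12, adjusted p = 0.0272), and 2 of the 7 at 60 min (3.26%, 3.12% higher), CML12 and CML38, and 1 of the 7 at 60 min without dark replicate 1 of flu/ex1/ydl1.

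With genotype alone in the model, so that no time was used, 4 of the 7 were higher in flu/ex1/ydl1 (3.88% of all 15965 genes tested in that fit were called, 3.38% higher). These were CML12 (2.04 ± 0.44 on the log2 scale, edgeR adjusted p = 0.0312), CML37 (4.49 ± 1.08, 0.0371), CML38 (2.70 ± 0.70, 0.0438) and CML40 (3.50 ± 0.87, 0.0396), and CML23 was not called (0.0914). When labelled times entered the model, the genotype difference over all 12 libraries was 0.45 to 4.05 over the 7 genes with edgeR adjusted p from 0.0797 to 0.504. The 4 libraries with 1 time in both sources gave CML12 179.6 CPM in flu/ex1/ydl1 and 26.5 CPM in flu/ex1 at 60 min, and 32.1 and 34.5 CPM in the same order at 0 min. In the same 4 libraries the 60 min ratio of flu/ex1/ydl1 to flu/ex1 was 26.9 for CML38, 42.8 for CML40, 7.57 for CML23, 4.45 for CML24 and 1.88 for CML9, from 1 library each and with no test. Of the 12 libraries, these 2 at 60 min had the lowest (flu/ex1/ydl1, 0.705) and highest (flu/ex1, 1.38) TMM scaling factors, which enter the ratios. For CML9 the counts were 220 and 332, out of 2469353 and 4192127 on nuclear loci.

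**Figure D4:**
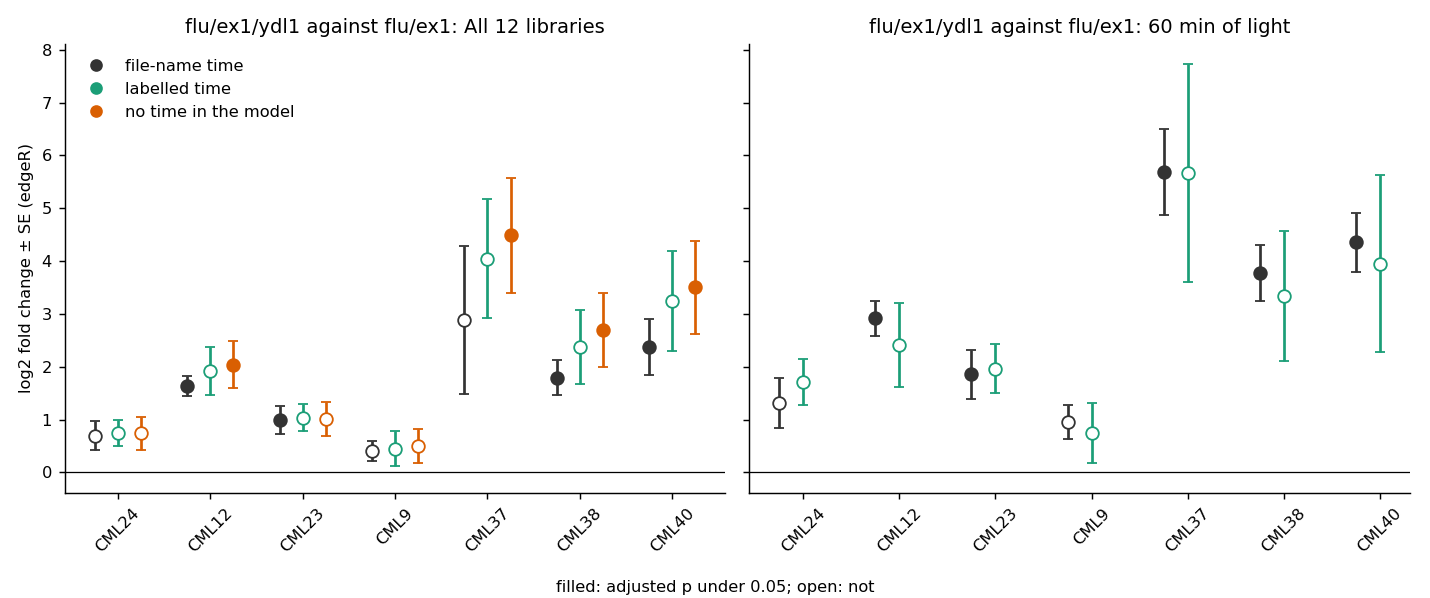
Log2 fold change ± SE of flu/ex1/ydl1 against flu/ex1 for the 7 tested genes over all 12 libraries (left) and at 60 min (right), with file-name times (black), labelled times (green) or, on the left, no time in the model (orange); filled points passed an edgeR adjusted p of 0.05. The estimates are all above 0, and those with labelled times are all open.

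The 6 groups fell into a like order for most of these genes. For CML12, the means were 253 ± 103 CPM in flu/ex1/ydl1 at 60 min, 158 ± 49.8 at 30 min and 35.9 ± 5.42 at 0 min, and 33.5 ± 9.83, 42.9 ± 0.795 and 33.1 ± 1.94 in flu/ex1 at 60, 30 and 0 min (SD, n = 2 each). In all 7 tested genes flu/ex1/ydl1 at 60 min ranked first and at 30 min second, and only for CML38 did the ranges of these 2 groups not overlap. For CML12, CML37, CML38, CML40 and CML23 the second group lay wholly above the third, and for CML24 and CML9 it did not. Below that, neighbours in the order overlapped, with the exception of CML12, in which flu/ex1 at 30 min lay above flu/ex1/ydl1 at 0 min. For all 7 genes replicate 3 was the higher of the flu/ex1/ydl1 libraries at 30 min (1.38 to 3.61 times) and of the flu/ex1 libraries at 60 min (1.49 to 5.57 times where both had counts), and replicate 2 was the higher of the dark flu/ex1 libraries (1.09 to 3.72 times where both had counts).

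Over the 12 libraries, CML24 and CML23 were each other's nearest pattern among the 8, with a root mean square difference of 0.21 in centred log2 CPM. The nearest gene outside the 8 was for both MSS3, which encodes another calmodulin-like protein, at 0.25 for CML24 and 0.28 for CML23. CML12 was nearest to AT2G41105, the locus inside it (0.08), then to AT3G09830 (0.19), and CML9 to TIR, a gene of a resistance-protein family (0.22). CML37 was nearest to AGC2-1, also OXI1, a kinase known from signalling by reactive oxygen (0.64), CML38 to AOC3, an enzyme of jasmonate synthesis (0.33), and CML40 to AT3G01055, the locus inside it (0.22), then to AT3G02840 (0.34). These are descriptions over 12 libraries that share their genotypes and times.

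Of the other 42 calmodulin-like genes, 22 were tested. At 60 min 11 were higher in flu/ex1/ydl1 and 0 lower (9.86% of all genes called, 8.53% higher), with a median log2 difference of 1.11. Over all times 10 of the 22 were higher and 0 lower (8.97% of all genes called, 7% higher). The list was chosen with earlier results of these data known, so its shares may reflect that choice. Among the 22, AT3G29000, annotated as an EF-hand protein, had 40.6 and 58.3 CPM in flu/ex1/ydl1 at 60 min against 1.07 and 1.97 CPM in flu/ex1. It rose by 6.34 ± 0.50 over 60 min in flu/ex1/ydl1 (log2, edgeR adjusted p = 1.10e-06). AT5G39670, annotated likewise, had 30.9 and 52.2 CPM in flu/ex1/ydl1 and 2.71 and 4.57 CPM in flu/ex1 at 60 min. CML42, a calmodulin-like protein of leaf hairs and insect defence, was higher by 1.24 ± 0.21 over all times (edgeR adjusted p = 0.000813). AT3G25600 was higher over all times by 1.26 ± 0.19 (0.000332), and AT1G21550 rose by 4.35 ± 0.63 over 60 min in flu/ex1/ydl1 (0.00012). Over 60 min in flu/ex1/ydl1, 7 of the 22 rose and 2 fell (12.8% of all genes called, 9.6% higher). Those that fell were AT1G12310, by 0.93 ± 0.23 (edgeR adjusted p = 0.0109), and AT1G62820, by 1.07 ± 0.27 (0.0122). Over 30 min in flu/ex1, 1 of the 22 rose (0.649% of all genes called, 0.537% higher). This was AT3G29000, by 3.45 ± 0.58 (edgeR adjusted p = 0.00747).

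The 7 calmodulin genes, whose proteins are the general calcium sensors, were all tested, and 0 was called by edgeR in any of the 12 comparisons, with at most 3 at an unadjusted p under 0.05 in one comparison. Their median log2 difference between genotypes at 60 min was -0.21, within a range of -0.75 to 0.81. CAM4, the neighbour of CML23, had a difference of -0.75 ± 0.38 at 60 min (log2, edgeR adjusted p = 0.282), CAM1, the neighbour of CML24, one of -0.70 ± 0.37 (0.299), and CAM2 one of 0.48 ± 0.27 (0.333). CML10, the neighbour of CML12, had a difference of -0.24 ± 0.31 (0.714). The smallest p were those of CAM4 (-0.57 ± 0.22, edgeR adjusted p = 0.128) and CAM3 (0.39 ± 0.16, 0.142) over all times, and of CAM6 (-0.73 ± 0.26, 0.0811) and CAM2 (0.62 ± 0.27, 0.166) over 60 min in flu/ex1/ydl1.

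Of 30 genes for calcium transport, calcium signalling and touch, all tested, 12 were higher in flu/ex1/ydl1 at 60 min and 0 lower, with a median log2 difference of 0.69. Over 60 min 13 of the 30 rose in flu/ex1/ydl1 and 0 fell (12.8% of all genes called, 9.6% higher). In flu/ex1 1 rose (1.38% of all genes called, 1.03% higher). This was AT5G62570, annotated as a calmodulin-binding protein, by 1.15 ± 0.26 (log2, edgeR adjusted p = 0.0388). SR1, also CAMTA3, a calmodulin-binding transcription factor that recognises the CG box, averaged 37.4 ± 4.58 CPM in flu/ex1/ydl1 and 5.78 ± 0.0315 CPM in flu/ex1 at 60 min (SD, n = 2 each). Its difference over all times was 1.61 ± 0.15 (edgeR adjusted p = 4.86e-06). CBP60G, a calmodulin-binding regulator of salicylate synthesis, averaged 34.6 ± 1.09 CPM in flu/ex1/ydl1 and 4.49 ± 1.89 CPM in flu/ex1 at 60 min. ACA1, a calcium pump, averaged 133 ± 2.46 CPM in flu/ex1/ydl1 and 24.0 ± 4.87 CPM in flu/ex1 at 60 min, and CBL1, a calcium sensor that recruits kinases, 34.1 ± 1.76 and 6.19 ± 2.77 CPM in the same order. The genes of this list were 40% called at 60 min, beside 9.86% of all genes. This list, like the others, was chosen with earlier results of these data known, so its share may reflect that choice.

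**Figure D5:**
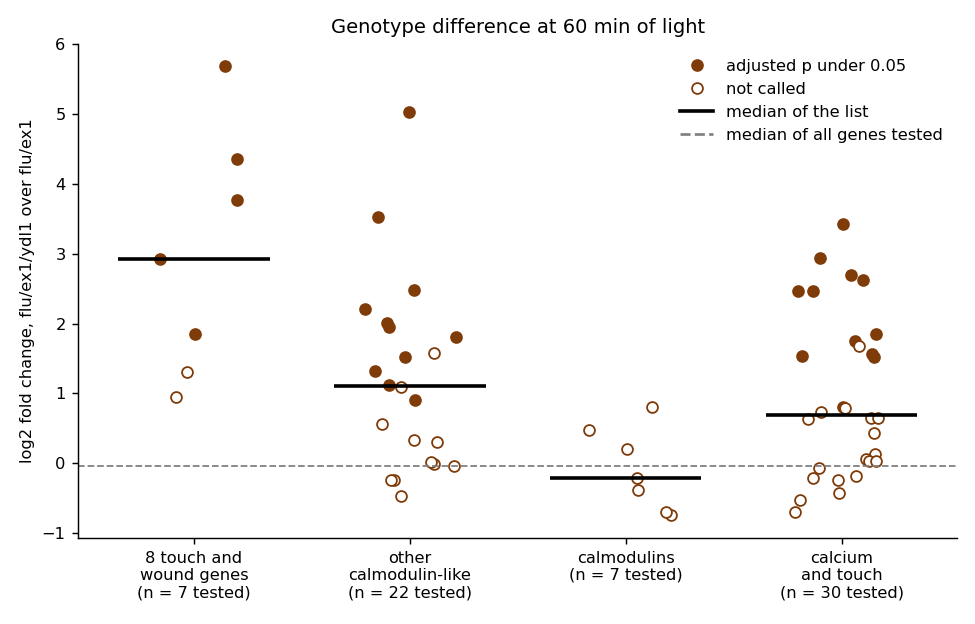
Log2 fold change of flu/ex1/ydl1 over flu/ex1 at 60 min for each tested gene of 4 lists; filled points passed an edgeR adjusted p of 0.05, black bars are list medians and the dashed line is the median of all genes tested (-0.05). The medians are 2.92 for the touch and wound genes, 1.11 for the other calmodulin-like genes, -0.21 for the calmodulins and 0.69 for the calcium and touch genes.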

How the data were processed

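The values are whole-number counts per locus, 1 deposited file per library; per the submitters' processing notes the authors used Trimmomatic, FastQC, TopHat2 2.1.1 and featureCounts with the build TAIR10. Which annotation was counted, whether strand was used and how reads with several hits were handled are not given in the sources used here. Counts were fitted with edgeR 4.0.16 in R 4.3.3 (quasi-likelihood F test, TMM scaling, filterByExpr with a minimum count of 10 and a total of 15) in 6 groups of genotype and file-name time, which share 1 estimate of the spread, and 17879 genes were tested. Adjusted p-values are Benjamini-Hochberg over all genes tested, with a threshold of 0.05, and were two-sided. CPM are counts divided by TMM-scaled library sizes. The procedure was tested on simulated data. Alternatives were labelled times, genotype alone, DESeq2 1.42.0, other scalings, no filter, a replicate block, only the groups compared, and each library left out. The genes and lists were chosen with earlier results of these data known. Beside the 8 genes, those named are the up to 4 of each list with the smallest p past the threshold (or 2 where none passed) over all times and for 60 against 0 min in flu/ex1/ydl1, loci next to the 8, list members that fell or were the 1 called, and the nearest patterns. Names and coordinates come from RefSeq's TAIR10.1, which held 36632 of the 36917 loci.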

Additional observations from a re-analysis of the deposited data

Results flagged for a closer look

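The response of CML12 to 60 min of light differed between genotypes by 2.80 on the log2 scale, and that of CML38 by 4.16, each past the threshold in edgeR's test of the interaction. Dark levels of both genes overlapped between genotypes. The labelled times gave 1.41 for CML12 and 2.54 for CML38, neither past the threshold. Among the 6 flu/ex1 libraries, CML39 stood far from the others in replicate 2 at 0 min, with 0.415 CPM from 3 counts. This was 1 of 16 sets of 6 libraries examined in that way. For normal replicate values, chance alone sets a sample apart in about 1 in 20. These libraries span all light times and had few counts of CML39, so that rate is not known to hold here.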

How the results depend on the processing

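With labelled times the number of the 8 genes called was 0 between genotypes over all times, at 30 and at 60 min, over 30 and 60 min in flu/ex1/ydl1 and in the 60 min interaction. Without the filter it was 2 (30 against 0 min) and 1 (60 against 0 min) in flu/ex1, 2 from 30 to 60 min in flu/ex1/ydl1, and 3 and 4 in the interactions at 30 and 60 min, and further genes passed over all times (CML24 and CML37), at 60 min (CML24 and CML9) and over 60 min in flu/ex1/ydl1 (CML24 and CML23). With DESeq2 it was 2 between genotypes at 30 min and 1 in the 30 min interaction, and CML40 passed in the 60 min interaction (adjusted p = 0.0394). With only the groups compared it was 1 over 30 min in flu/ex1, and CML24 passed at 60 min (edgeR adjusted p = 0.0485). With each library left out in turn it ran from 3 to 5 over all times, 0 to 4 at 30 min, 4 to 6 at 60 min, 3 to 5 and 4 to 5 over 30 and 60 min in flu/ex1/ydl1, 1 to 3 in the 60 min interaction and 0 to 0 elsewhere. Without the filter the 60 min interaction of CML40 was 4.46 on the log2 scale (edgeR adjusted p = 3.34e-06), beside 4.48 (0.0848) with it. Beside these counts, the shares of all genes called are not given for labelled times, no filter or DESeq2. They are also not given for only the groups compared or for each library left out. The counts in those settings therefore have no background here, and those with a library left out have none in the results above. A lower count with a library left out cannot be told from fewer calls over all genes. The cause of the differences between settings was not tested.

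Between groups that share both replicate numbers, deviations from the group means of same-numbered libraries correlated by -0.182 to 0.276 over 17879 genes. With 2 libraries in a group the deviations mirror each other, so each correlation rests on a single contrast. Whether the replicate numbers pair the libraries cannot be told from this. The replicate block gave 1 gene called over 30 min and 1 over 60 min in flu/ex1, 1 from 30 to 60 min in flu/ex1/ydl1 and 1 in the 30 min interaction. With it CML40 passed in the 60 min interaction (edgeR adjusted p = 0.0251), and over all times CML9 (0.031) and CML37 (0.0415) passed and CML23 did not (0.0596). Over all genes the replicate block called 334 in the 60 min interaction against 582 without it, and 41 against 21 at 30 min. Its totals over all genes in the other comparisons are not given, so the counts there have no background here. Crossed pairing over 30 min in flu/ex1, chosen after seeing the data, called 1 of the 8 and 202 genes in all, against 116 unpaired.

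Log2 values turned in sign in 58 cases, 0 of them with an adjusted p under 0.05. With labelled times these were, at 0 min between genotypes, CML24 -0.25, CML37 1.40, CML38 0.80 and CML40 1.97. In flu/ex1/ydl1 they were CML23 -0.075 over 30 min, and CML37 -0.47 and CML38 -0.17 from 30 to 60 min. In flu/ex1 they were CML24 -0.96, CML12 -0.091, CML23 -1.07, CML9 -0.37 and CML37 -0.46 over 30 min, CML12 -0.14, CML9 -0.16, CML37 -1.52 and CML38 -0.30 over 60 min, and CML9 0.21 from 30 to 60 min. With the replicate block they were CML9 0.31, CML37 0.13, CML38 0.11 and CML40 0.39 at 0 min, and CML9 0.024 and CML38 0.014 from 30 to 60 min in flu/ex1.

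With each library left out, the difference at 0 min ran from -0.043 to 0.26 for CML12, -0.20 to 1.54 for CML23, -0.52 to 1.38 for CML24, -1.55 to 3.57 for CML37, -1.07 to 0.42 for CML40 and -0.46 to 0.40 for CML9. The 30 min interaction ran from -0.87 to 0.87 for CML23, -0.76 to 1.14 for CML24, -0.23 to 4.90 for CML37 and -0.081 to 0.78 for CML9, and that at 60 min from -0.072 to 1.82 for CML24. In flu/ex1, 30 against 0 min ran from -0.29 to 1.45 for CML23 and -0.39 to 1.51 for CML24. There 60 against 0 min ran from -0.32 to 0.29 for CML12, -1.18 to 0.61 for CML23, -0.89 to 1.01 for CML24, -3.85 to 6.02 for CML37 and -0.99 to 1.23 for CML38. There 60 against 30 min ran from -6.80 to 0.17 for CML37, -1.83 to 0.39 for CML38 and -2.25 to 0.20 for CML40. In flu/ex1/ydl1, 60 against 30 min ran from -0.025 to 0.69 for CML23, -0.16 to 0.66 for CML24 and -0.047 to 0.65 for CML9. Depth limits CML37 and CML40 in the dark and CML39 throughout.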

Other observations

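TCH4, a touch-induced cell wall enzyme of the calcium and touch list, was chosen after its values were seen. It averaged 175 ± 121 CPM in flu/ex1/ydl1 and 28.4 ± 13.3 CPM in flu/ex1 at 60 min (SD, n = 2 each), a log2 difference of 2.63 ± 0.50 (edgeR adjusted p = 0.00162). At 0 min it ranged from 33.1 to 34.4 CPM in flu/ex1/ydl1 and from 21.4 to 36.9 CPM in flu/ex1, so that the genotypes overlapped.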
